A study of Mus musculus with 2 samples.

Results

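The CCN genes and Ankrd1 were examined in mouse colon after a change of diet. They comprise Ccn1, Ccn2, Ccn3, Ccn4 and Ccn5, earlier named Cyr61, Ctgf, Nov, Wisp1 and Wisp2, and the muscle gene Ankrd1. Members were all probe sets whose platform annotation names 1 of these genes alone. This gave 7 probe sets for 6 genes, out of 23521 probe sets naming 1 gene each and 22180 genes in all. The genes were chosen on the difference between these same 2 arrays, so their values are a description and no test is given. RNA came from colons of healthy male ICR mice, an outbred stock, aged 7 weeks. One array held RNA of mice on a diet without psyllium and the other RNA of mice on a diet with 10% psyllium, a gel-forming seed-husk fibre, for 5 days. With 1 array per diet there is no replicate check on any value, and the number of mice behind each array is not in the labels. Neither is the colon segment, nor whether the muscle coat was kept.

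CCN proteins are secreted proteins of the extracellular matrix that bind integrins, proteoglycans and growth factors rather than forming the structural scaffold. Most are built of an insulin-like growth factor binding module, a von Willebrand type C module, a thrombospondin repeat and a C-terminal cystine knot, and Ccn5 lacks the last. Ccn1, Ccn2 and Ankrd1 are widely used readouts of the transcriptional coactivators YAP and TAZ, which act through TEAD factors and respond to mechanical tension, and Ccn1 and Ccn2 are also induced early by serum and, for Ccn2, by TGF-beta. Ankrd1 encodes a cardiac ankyrin repeat protein that binds the giant muscle protein titin and is also found in the nucleus. In the gut, CCN genes are mainly known from fibroblasts, smooth muscle and vessels.

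The promoters of Ccn1 and Ankrd1 are shown because a promoter window was found for these 2 of the 6 genes alone, on build GRCm38.p6. Both are standard TEAD-dependent reporters, and both were over 2-fold higher on the psyllium array. Ccn2, a further such reporter, had no window. The Ccn1 window is chr3:145649936-145650235 and the Ankrd1 window chr19:36119795-36120094. Both lie on the minus strand and are written in the gene's direction, from 250 bases before the annotated start to 50 after it. Capitals mark matches, on either strand, to the TEAD core GGAATG, the SMAD box CAGAC and the TATA box TATAAA. The AP-1 site TGANTCA and the CArG box of serum response factor were also searched and are in neither window.
Ccn1: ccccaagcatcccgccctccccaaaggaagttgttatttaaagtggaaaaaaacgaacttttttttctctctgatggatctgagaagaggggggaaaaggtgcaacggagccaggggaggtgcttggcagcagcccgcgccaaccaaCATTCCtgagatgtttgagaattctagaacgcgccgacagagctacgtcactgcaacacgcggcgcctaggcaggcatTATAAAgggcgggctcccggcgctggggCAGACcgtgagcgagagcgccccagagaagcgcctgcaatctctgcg
Ankrd1: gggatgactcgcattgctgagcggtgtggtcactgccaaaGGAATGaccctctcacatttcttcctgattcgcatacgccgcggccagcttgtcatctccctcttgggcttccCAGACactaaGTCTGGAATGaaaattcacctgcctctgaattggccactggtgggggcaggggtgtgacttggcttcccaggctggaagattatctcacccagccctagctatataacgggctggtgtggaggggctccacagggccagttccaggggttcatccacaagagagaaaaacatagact

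The TEAD core occurred once in the Ccn1 window, on the opposite strand from base -103 to base -98 relative to the start. In the Ankrd1 window it occurred at 2 places on the gene's own strand, from base -210 to -205 and from -123 to -118. A match to this core is common, being present in 14.7% of the 32851 promoter windows of the same length. SMAD boxes were found in Ankrd1 at bases -137 to -133 and, on the opposite strand, at -127 to -123, the last base of which is shared with the second TEAD core. Ccn1 held 1 SMAD box, at bases 4 to 8 of the transcript, and the TATA box at -25 to -20. SMAD boxes are in 49.6% of all windows and TATA boxes in 13.6%. AP-1 sites are in 7.81% of windows and CArG boxes in 1.63%. These are matches of letters, and no binding was measured.

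**Figure D1:**
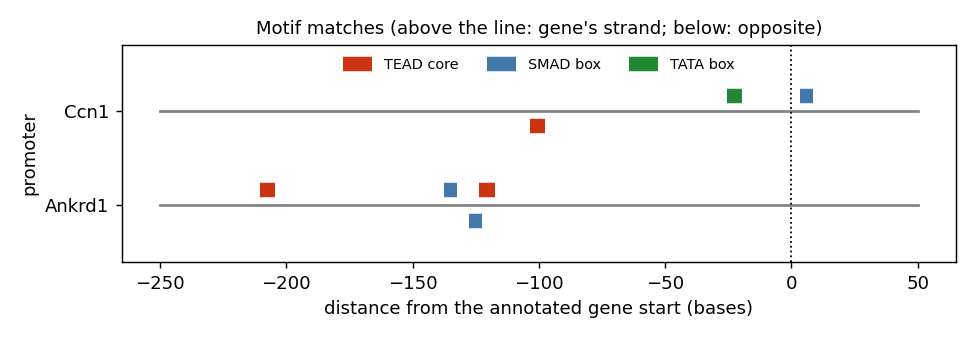
Motif matches in the promoter windows of Ccn1 and Ankrd1, drawn to scale from 250 bases before to 50 bases after the annotated start (x axis, bases). Blocks above a line are on the gene's strand and blocks below on the opposite strand; the Ankrd1 window holds 2 TEAD cores and the Ccn1 window 1.

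On the arrays, Ccn3 differed most, followed by Ankrd1, the brighter Ccn2 probe set and Ccn1. Ccn4 differed less and Ccn5 least among the 6 genes. Values are normalised intensities on a linear scale, 1 per array, and a difference is the log2 intensity with psyllium minus that of the control. A probe set was taken as bright enough when its higher value reached 69.5, the median of that quantity over all genes, and 6 of the 7 member probe sets did. Of these 6, 4 were at least 2-fold higher with psyllium and 0 of the 7 were at least 2-fold lower. Over all 11562 probe sets of 1 gene past this filter, 1.04% were 2-fold higher and 0.528% were 2-fold lower. Since the genes were picked on this contrast, nothing is read from that count. A probe set can pass on its brighter array alone, so the size of a fold with a dim control value is uncertain.

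**Figure D2:**
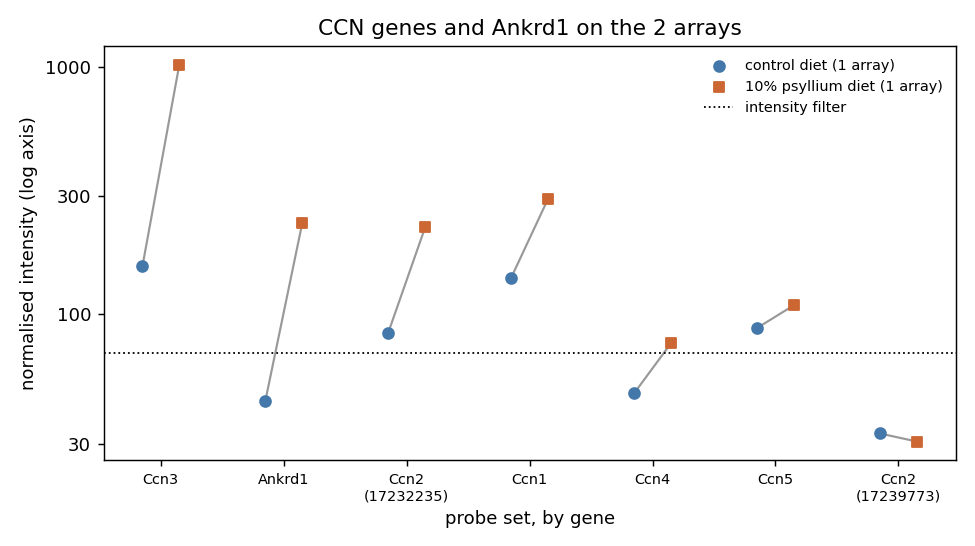
Normalised intensity (y axis, log scale) of the 7 probe sets for the control diet (circles) and for psyllium (squares), 1 array per diet, so no error bars can be drawn; the dotted line is the filter at 69.5. Ccn3 goes from 157 to 1022 and Ankrd1 from 44.7 to 233, whereas the dim Ccn2 probe set stays at 33.0 and 30.6.

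Ccn1 and Ccn2, the matrix-associated ligands of integrins that cells make soon after stimulation, were both higher on the psyllium array. The Ccn1 probe set (17410974) read 141 with the control diet and 293 with psyllium. This is 2.08-fold, or a difference of 1.06. Of 3206 genes past the filter whose mean log2 level lay within 0.5 of that of Ccn1, 26 (0.811%), Ccn1 included, differed by at least as much in this direction. The members were chosen on this contrast, so this share, like those of other members below, is a description and no test. Both values lay above the filter, so the Ccn1 fold does not rest on a dim array.

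Ccn2 has 2 probe sets that did not move together. Probe set 17232235 read 84.4 with the control diet and 225 with psyllium, a 2.66-fold difference, and both values lay above 69.5. Probe set 17239773 read 33.0 and 30.6, a difference of -0.11, and lay below the filter on both arrays. The gap between them was 1.52 on the log2 scale, and their mean difference was 0.65. For comparison, in 331 genes whose 2 brightest probe sets both passed the filter, the median gap was 0.17. In 431 genes where the brightest passed and the next did not, it was 0.22. Of those 431 genes, 7 had a brightest probe set at least 2-fold higher with psyllium, Ccn2 among them. In 0 of these 7 was the dim one also 2-fold higher, its difference running from -1.24 to 0.50. The Ccn2 difference thus rests on 1 probe set, with no second bright one to set beside it.

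Ccn3, a family member first described in nephroblastoma, had the largest difference of the 11090 genes past the filter. Its probe set (17311519) read 157 with the control diet and 1022 with psyllium, which is 6.53-fold or 2.71 on the log2 scale. Both values were well above the filter. Among 2099 genes of like mean level, Ccn3 was the 1 gene to reach this difference. That count was fixed by its first place among all 11090 genes, so it adds nothing.

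Ccn4 and Ccn5, whose earlier names Wisp1 and Wisp2 refer to induction by Wnt1, differed by less. The Ccn4 probe set (17312022) read 48.0 and 76.4, which is 1.59-fold. It passed the filter through its psyllium value alone, so its fold is uncertain. Among 1585 genes of like level past the filter, 57 (3.60%) differed at least as much in the same direction. The mean level of Ccn4 lay below the filter, and genes with such a mean pass only through their brighter array. The filter thus partly sets this share, and nothing is read from it. The Ccn5 probe set (17379314) read 88.1 and 109, a difference of 0.31, or 1.24-fold, with both values above the filter. For Ccn5, 521 of 3658 genes of like level (14.2%) had at least that difference, so its value lay among those of many other genes. The sixth family gene, Ccn6, which is not a member here, read 41.3 and 41.2, below the filter on both arrays.

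Ankrd1 had the second largest difference of the 6 genes and the fifth largest past the filter. Its probe set (17364176) read 44.7 with the control diet and 233 with psyllium, or 5.22-fold. The control value lay below the filter, so the size of this fold is uncertain. With 16 added to each intensity before the logarithm, the Ankrd1 difference was 2.04 in place of 2.38. The same step left Ccn1 at 0.98, just under 2-fold, so that 3 and not 4 probe sets stayed past that mark. The other muscle ankyrin repeat genes differed little. Ankrd2 read 45.2 and 58.7, below the filter, and Ankrd23 read 93.4 and 95.5.

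**Figure D3:**
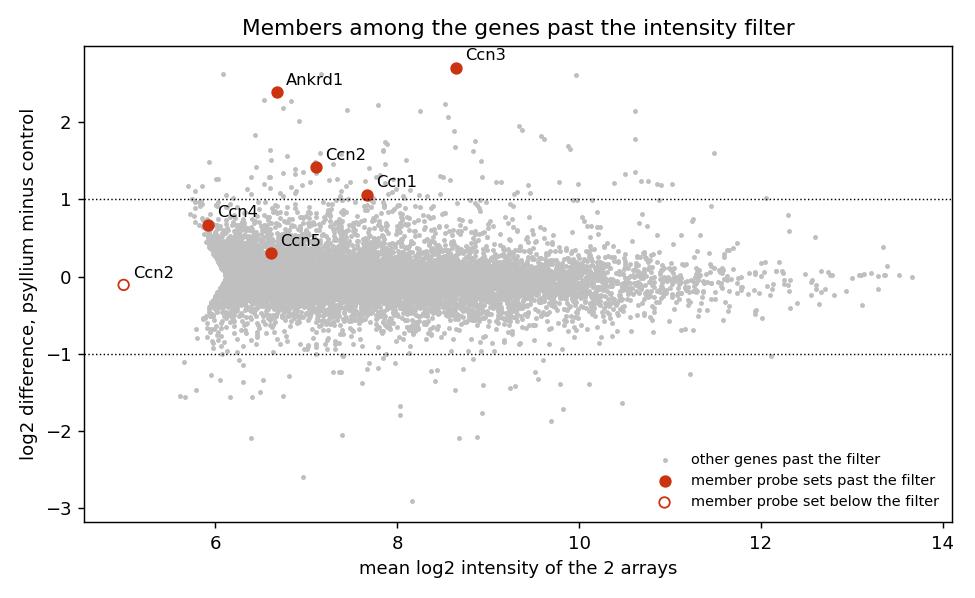
Log2 difference, psyllium minus control (y axis), against the mean log2 intensity of the 2 arrays (x axis) for genes past the filter (grey) and the member probe sets (red; open where below the filter). Dotted lines mark 2-fold; Ccn3 at 2.71, Ankrd1 at 2.38, Ccn2 at 1.41 and Ccn1 at 1.06 lie above the upper line, Ccn4 at 0.67 and Ccn5 at 0.31 between the lines.

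Genes nearest to Ankrd1, the brighter Ccn2 probe set and Ccn3 in the plane of the 2 log2 intensities included matrix or muscle genes. With 2 arrays this distance is the only measure of likeness, and it says nothing of shared function. Nearest to Ankrd1 were the proteoglycan gene Vcan (50.4 and 229, a distance of 0.18), the microfibril gene Mfap5 and the cardiac actin gene Actc1. Nearest to the brighter Ccn2 probe set were Calhm5, Thbs3 and the collagen gene Col14a1, with distances of 0.048 to 0.15. Ccn1 lay closest to Ppic, Emp3 and Gpx8, all within 0.093. Ccn3 had no close companion. Its nearest gene was the neuropeptide gene Vip (170 and 799) at 0.37, followed by the follistatin-like gene Fstl1 and the intermediate filament gene Synm. Ccn4 lay nearest to Ppil6, Prrx2 and Pcdhga10, and Ccn5 to Plekhg1, Zfp703 and Tmem198b. Taking the mean of all probe sets of a gene kept 15 of these 18 pairs, and the 3 for Ccn2 were replaced by Morc4, Zfp983 and Adamts17.

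The genes that flank the members on the chromosome were set beside them. In the RefSeq table of GRCm38.p6, Ccn3 and Ccn4 both lie on chromosome 15, with 53 protein-coding genes between them, and the other 4 genes lie on other chromosomes. Of the 24 protein-coding genes that flank the members, 2 on each side, 21 had a probe set of their own and 15 passed the filter. Of the 15, 0 were 1.5-fold higher and 1, Ada beside Ccn5, was at least 1.5-fold lower, named after its value was seen. Over all genes past the filter 4.03% and 2.42% were higher and lower by as much, so counts this small among 15 genes are near that background. The 15 ran from -0.87 to 0.44, with a median of 0.07.

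Binding partners of CCN proteins differed unevenly, and those higher with psyllium included the fibronectin receptor. Gene lists are described at 1.5-fold, without the members, using the brightest probe set of a gene. Over all 11090 genes past the filter, 4.03% were 1.5-fold higher and 2.42% were 1.5-fold lower. The median difference was -0.04 over those genes and -0.0025 over all 22180. Of 24 partners and receptors, 6 were higher and 1 was lower, with a median of 0.19. Fibronectin, Fn1, which Ccn2 binds, read 404 and 2464 (6.10-fold). The integrin subunit Itga5 read 102 and 479 (4.68-fold). Decorin, Dcn, and perlecan, Hspg2, were 2.27-fold and 1.76-fold higher. The 1 lower gene was Itgb6, an epithelial integrin subunit, at 112 and 70.6, named after its value was seen. Lrp1, an endocytic receptor of Ccn2, read 530 and 528, and Notch1, which Ccn3 can bind, read 138 and 154.

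Other genes used as YAP and TEAD readouts differed less than Ccn1, Ankrd1 and the brighter Ccn2 probe set. Those members were chosen on this same contrast, so nothing is read from that order. Of 19 further targets, 3 were at least 1.5-fold higher, 0 were lower by as much, and 13 had positive and 6 negative differences, with a median of 0.28. The 3 were the receptor kinase Axl (256 and 439), the membrane repair gene Myof (188 and 295) and the ectonucleotidase Nt5e (130 and 200). The largest of their differences, 0.78 for Axl, was below the 1.06 of Ccn1. It was above the mean of both Ccn2 probe sets, 0.65. Among 20 measured components of the Hippo pathway, which restrains YAP and TAZ, 1 was higher and 0 were lower, with a median of 0.04. That gene was Wwtr1, which encodes TAZ, at 150 and 273. Yap1 itself read 318 and 323. This covers transcript levels, and the activity of YAP or TAZ was not measured.

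The remaining inducers and early-response genes went in different directions. Of 19 genes of serum response factor and its MRTF cofactors, 10 were higher and 1 was lower, with a median of 0.64. The 6 of them that are also smooth muscle markers were all higher (median 1.30). The 13 in no marker list had a median of 0.19 with 4 higher and 1 lower. Those 13 mix regulators such as Srf and early genes such as Fos with targets such as Flna, so the 2 medians cover unlike genes. After Itga5, the largest differences of the 19 were those of the smooth muscle genes Actg2 (4.42-fold), Tagln (3.15-fold) and Cnn1 (3.04-fold). Of 18 TGF-beta ligands, receptors and targets, 5 were higher and 0 lower, with a median of 0.32. Besides Fn1 these included the collagens Col3a1 (3.44-fold) and Col1a1 (3.39-fold) and periostin, Postn (2.56-fold). Leaving aside the 2 collagens, which are also fibroblast markers, the other 16 had a median of 0.15 and 3 were higher. Those 3, Fn1, Postn and Thbs1, are also in the list of CCN partners or of other matricellular genes. Counts from these lists are therefore not separate. Those 16 include the ligands, receptors and Smad genes beside targets. Immediate early genes other than Ccn1 and Ccn2 leaned the opposite way. Of these 19, 0 were 1.5-fold higher and 2 were lower, namely Zfp36, which speeds the decay of messenger RNAs (377 and 237), and the transcription factor gene Fos (123 and 79.5), and 14 had negative differences.

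Matricellular genes outside the CCN family were higher with psyllium more often than not. Of 19 measured, 18 had positive differences, 9 were at least 1.5-fold higher and 0 were lower by as much, with a median of 0.56. The thrombospondin Thbs3 read 81.8 and 229 (2.81-fold). Postn, tenascin C, Tnc, and Sparc were 2.56-fold, 2.39-fold and 2.12-fold higher. Ccn3 lay above the highest of them, Ccn1 and Ccn2 within their range, and Ccn5 below their median. The members were chosen on this contrast, so nothing is read from these places.

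Markers of the colon wall moved with these genes. All 18 smooth muscle and all 17 pan-epithelial markers measured were past the filter, so transcripts of both tissues were read. These lists were not made to tell the colon from other gut segments. Of the smooth muscle markers 17 were at least 1.5-fold higher with psyllium, and the summed intensity of the list was 15690 for the control diet and 37230 for psyllium. Of 17 fibroblast and matrix markers 13 were higher (12 of the 16 past the filter), and their sum was 6277 and 14569. The smooth muscle and fibroblast medians were 1.13 and 1.22. The fibroblast list was uneven. Pdgfra (545 and 678), Pdgfrb (184 and 161), Fbln1 (191 and 225) and Thy1 (68.8 and 97.4) were not 1.5-fold higher, named after their values were seen. All 17 pan-epithelial markers had negative differences, with a median of -0.29 and sums of 32928 and 27678. Their part in the differences of the CCN genes and Ankrd1 was not tested. In RNA of a mixed tissue, more cells of a type and more RNA per cell cannot be told apart.

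Set beside these wall markers, the members spread widely. They were chosen on this same contrast, so nothing is read from their order among the markers. The Ccn3 and Ankrd1 differences were larger than those of all 18 smooth muscle and all 17 fibroblast markers, the largest of which were Actg2 (2.14) and Mfap5 (2.28). For Ankrd1, whose control value is dim, this place was lost with 16 added to each intensity, where Actg2 (2.12) exceeded it (2.04). Ccn3 kept its place under each of the 4 scaling and pseudocount settings run. Ccn2 by its brighter probe set was exceeded by 7 of the 18 muscle and 6 of the 17 fibroblast markers, and Ccn1 by 10 of each. Ccn4 was exceeded by 16 and 13 of them. Ccn5 was exceeded by all 18 muscle markers and 15 of the fibroblast markers.

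Markers of other cells that could carry these genes differed less. Of 22 striated muscle genes, 14 were below the filter, 5 were higher and 0 lower, with a median of 0.29. On the 8 past the filter 4 were higher and the median was 0.56. Their summed intensity was 1090 and 1725. The higher ones included the sarcomeric actins Actc1 (51.8 and 250) and Acta1 (96.2 and 289), whose sequences are close to those of the smooth muscle actins. The cardiac myosin gene Myh6 read 18.3 and 17.5 and titin, Ttn, 26.2 and 27.1. Of 10 mesothelial markers, 4 were higher (2 of the 6 past the filter) and 0 lower, with sums of 3342 and 3198 and a median of 0.48. Krt19, which is also in the pan-epithelial list, and Cldn15 made up most of these sums, and without them the other 8 summed to 393 and 569. Upk1b (50.9 and 95.0) and Upk3b (63.2 and 99.5) led them, and 4 were below the filter. Of 14 endothelial markers 1 was higher, the lymphatic gene Lyve1 (2.09-fold), with sums of 1976 and 2386 and a median of -0.01. Prox1, the other lymphatic gene of that list, read 103 and 98.9, named after its value was seen. Of 13 macrophage markers 2 were higher, Mrc1 (2.33-fold) and Cd163 (1.71-fold), with sums of 2013 and 2444 and a median of 0.43. Of 6 genes listed for pacemaker cells 1 was higher, with sums of 1453 and 1961 and a median of 0.46. It was Cd34 (1.64-fold), a gene that is not particular to those cells. The others of that list were mixed, named after their values were seen. Kit (574 and 746), Ano1 (281 and 416) and Gja1 (251 and 365) had positive differences. Etv1 (103 and 89.0) and Prkcq (69.6 and 59.2) had negative ones. Of 16 enteric neuron and glia markers, Vip (4.70-fold) was the 1 that was higher, with sums of 1382 and 1898 and a median of -0.06. Without Vip the other 15 summed to 1212 and 1099. Of 11 adipocyte markers 1 was higher, Car3 (1.51-fold), with sums of 1749 and 1740 and a median of 0.22, which turned to -0.013 on the 6 past the filter. Without Pparg (766 and 577) the other 10 summed to 983 and 1163. The genes left out of these sums were chosen after their values were seen. None of these 6 lists, from mesothelial to adipocyte, had a gene 1.5-fold lower (0 in each).

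**Figure D4:**
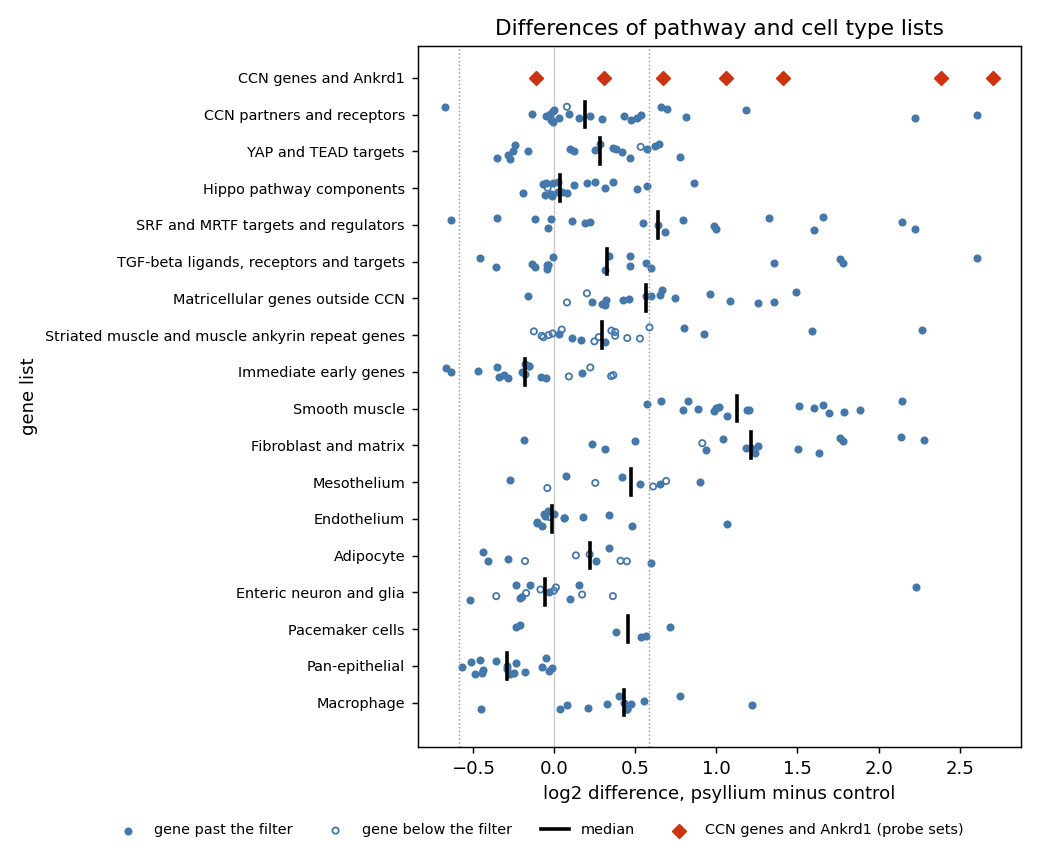
Log2 differences, psyllium minus control (x axis), of the 7 member probe sets (red diamonds, top) and of the genes of 17 pathway and cell type lists without the members (y axis; filled, past the filter; open, below it); black bars are list medians, dotted lines 1.5-fold. Smooth muscle and fibroblast medians lie at 1.13 and 1.22 and the pan-epithelial median at -0.29. Ccn3 and Ankrd1 lie to the right of all smooth muscle and fibroblast genes. They were chosen on this contrast, so nothing is read from that place. With 16 added to each intensity Ankrd1 (2.04) falls behind Actg2 (2.12).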

How the data were processed

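The authors deposited 1 table of normalised intensities on a linear scale for 2 arrays of biotin-labelled colon RNA, 1 per diet. Per the submitters' processing notes the tools were Affymetrix Expression Console and RMA, with no version given; the annotation and build are not given in the sources used here. Intensities were above 0 and were converted to log2 without a pseudocount. Medians were 48.9 and 49.8, so differences are relative to the bulk of transcripts. The number of arrays limits the precision, and no test, error or p-value is given.

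Of 41345 probe sets, 23521 named 1 gene in GEO's platform annotation, 1814 several and 16010 none here; symbols were updated by gene number through RefSeq. A gene was represented by its brightest probe set. Values were computed with Python 3.11.15, pandas 2.3.3 and statsmodels 0.14.6. The code was checked on simulated data with planted changes. That check holds no variation between animals, so it does not show how far the calls would repeat. Of 300 list entries 290 had a probe set with that gene as its only name. All member probe sets are named; of each pathway list up to 4 genes past the filter with the largest differences of at least 1.5-fold (otherwise the 2 brightest), of each marker list up to 2, and the 3 nearest genes of each member. Further genes are named as receptors, relatives or controls of a member, after their values were seen. Members and lists were chosen with earlier results of these data known. Alternatives changed the scaling, the pseudocount, the intensity trend (lowess), the filter, the fold and the choice of probe sets. The planned comparison of member proteins was not analysed here.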

Additional observations from a re-analysis of the deposited data

How the results depend on the processing

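With 1 array per diet no array could be left out. No paired analysis was possible because each diet has 1 array and the labels carry no replicate numbers. A value was taken as moved when it shifted by more than 0.17, the median gap between probe sets of 1 gene, which measures agreement on the same RNA and not between animals. Under quantile normalisation, centring, a pseudocount of 16 and removal of the intensity trend, the 7 member differences kept their sign, and 1 moved, that of Ankrd1 to 2.04 with the pseudocount. Ccn3 ran from 2.59 to 2.77, Ccn2 by its brighter probe set from 1.26 to 1.44, Ccn1 from 0.98 to 1.12, Ccn4 from 0.53 to 0.67 and Ccn5 from 0.26 to 0.31. The count of member probe sets at least 2-fold higher was 4, or 3 with the pseudocount, and 5 at 1.5-fold. Of 102 alternative list medians 2 moved, both on genes past the filter alone, so fewer genes: striated muscle to 0.56 and adipocyte to -0.013. Of 3 TEAD cores, 2 lay within 200 bases before the start. Dim control values limit the folds of Ankrd1 and Ccn4.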

Other observations

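Promoter motifs were also set against the differences of all genes past the filter that have a promoter window, a split added after the data were seen and given without a test. Of 1241 genes with the TEAD core, Ccn1 and Ankrd1 included, 5.48% were higher with psyllium by 1.5-fold or more, against 3.45% of 7481 genes without it. The medians were -0.02 and -0.04. The largest gap was that for the CArG box of serum response factor, which neither member window holds. Of 150 genes with it 16 (10.7%) were 1.5-fold higher, against 3.62% of 8572 genes without it. For the TATA box the shares were 6.61% of 787 and 3.45% of 7935 genes, for the AP-1 site 4.61% of 564 and 3.68% of 8158, and for the SMAD box 3.77% of 4512 and 3.71% of 4210. Genes can hold several of these motifs and are not independent replicates, and the muscle and fibroblast genes that were higher were not separated out.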
